A study of Mus musculus with 26 samples.

Results

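Integrins, the discoidin domain receptors (DDRs) and the ADAM proteases were followed in mouse knee joints after destabilization of the medial meniscus (DMM), a surgery that brings on osteoarthritis by cutting the ligament holding the medial meniscus. The members were all genes on the array whose symbol is that of an integrin chain (Itga or Itgb and a digit, or Itgal, Itgam, Itgav, Itgax or Itgae), Ddr1, Ddr2 or an ADAM, without Adam12 and the Adamts genes, and each gene was read from its brightest probe set. There were 57 such genes among the 18194 genes with a probe set of their own. They comprised 25 integrin chains, 3 integrin partner proteins with a matching symbol, both DDRs and 27 ADAMs. Of these, 33 passed a filter on dim signal and were tested, among 11488 genes in all, and they comprised 18 chains, 2 partners, both DDRs and 11 ADAMs. Itga11 had no probe set of its own here.

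The tissue was the medial compartment of the joint, with cartilage, subchondral bone, meniscus and the capsule with its synovium, from male C57BL/6 mice that were 12 weeks old at surgery. DMM joints and sham-operated joints were collected at 2, 4, 8 and 16 weeks, when the mice were 14, 16, 20 and 28 weeks old, and unoperated joints were collected at time 0, when the mice were 12 weeks old. The RNA of 3 mice was pooled for each array, and there were 3 pools per condition except for DMM at 2 weeks, which had 2 (pools 2 and 3), for 26 arrays in all. The pool was the unit of replication. Values are log2 signals, so a difference of 1 is a doubling. Because each pool mixed several tissues, fewer cells of a type and less RNA per cell cannot be told apart.

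Integrins are transmembrane receptors made of an alpha and a beta chain that tie the cytoskeleton to matrix proteins such as collagen, fibronectin and laminin, or to other cells. DDRs are receptor tyrosine kinases that are switched on by collagen itself. ADAMs are membrane-anchored proteins of which many, but not all, are metalloproteases that cut the outer part of other membrane proteins and release it. In joints these families are known for how chondrocytes and fibroblasts sense their matrix, for adhesion of blood cells and osteoclasts, and for the release of growth factors and cytokines.

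The largest number of differences between DMM and sham joints was at 4 weeks, where 11 of the 33 members passed the test (adjusted p under 0.05, limma), 8 with more signal in the DMM pools and 3 with less. The share over all genes tested was 20.3%, with 13.2% higher and 7.05% lower. The median difference of the members was -0.05, against -0.02 over all genes tested. The higher members were Ddr2, Adam9, Itgav, Adam17, Itga10, Ddr1, Itgb5 and Itgb1, and the lower members were Adam4, Itga2b and Itgal. The pools of DMM and sham joints did not overlap for 17 of the 33 members (8 above, 9 below), where this held for 39.5% of all genes. The count of called members was 4 without DMM pool 2, 5 without DMM pool 3, 5 without sham pool 2 and 7 without sham pool 1, and 4 when only these 6 pools were fitted. Adam9, Ddr2, Adam4 and Adam17 kept their call whichever pool was left out, while Itgal lost it each time 1 of the 6 was left out. The fit of the 6 pools alone kept Adam9, Ddr2, Adam4 and Itgav, and Adam17 lost its call there.

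**Figure D1:**
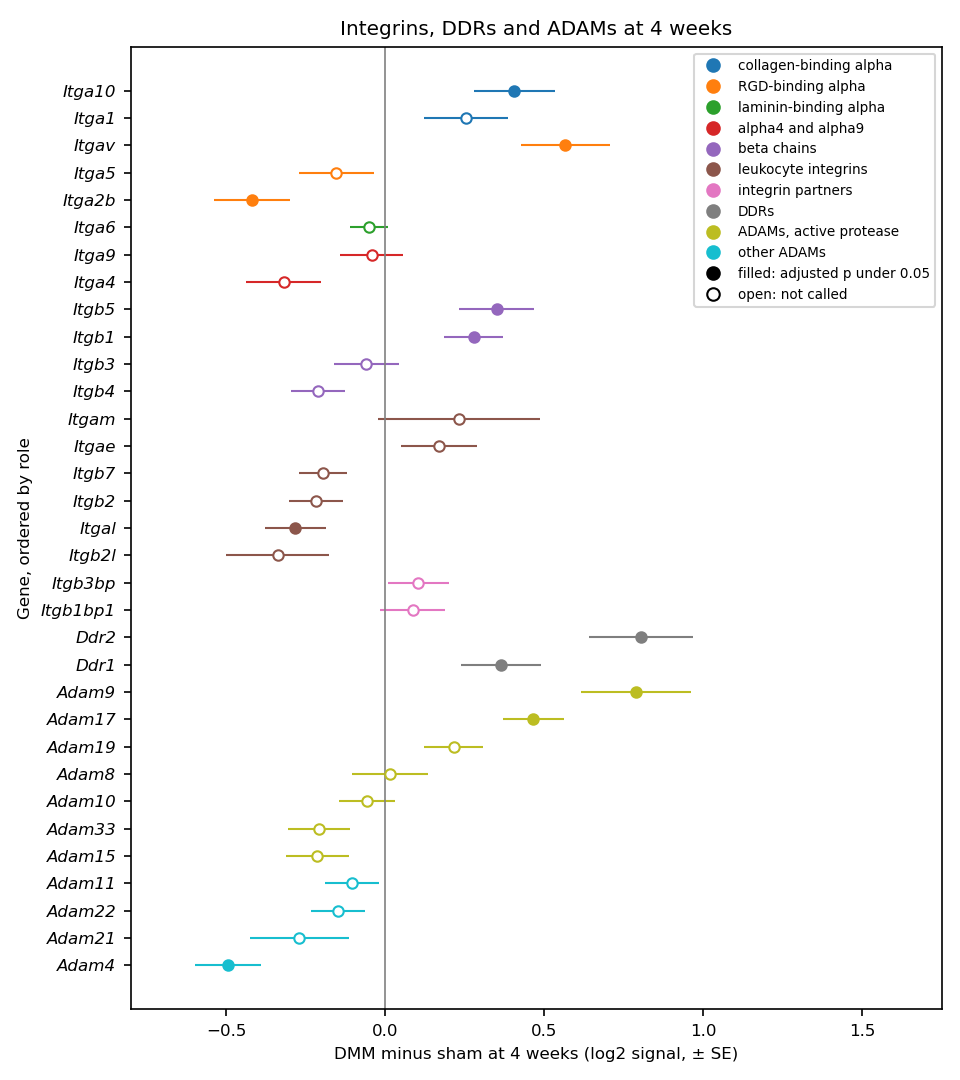
Difference between DMM and sham joints at 4 weeks (log2 signal, horizontal axis, with its SE from limma) for the 33 tested members, ordered by role on the vertical axis. Filled points mark the 11 members with an adjusted p under 0.05: 8 lie right of zero, led by Ddr2 at 0.80 and Adam9 at 0.79, and 3 lie left of it.

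Among the receptors for collagen, both DDRs and 1 of the 2 tested collagen-binding alpha chains had more signal in DMM pools than in sham pools at 4 weeks. Ddr2, a receptor of mesenchymal cells for fibrillar collagen, had 10.66, 11.05 and 10.97 in the DMM pools at 4 weeks, against 10.18, 9.82 and 10.26 in the sham pools. All DMM pools were above all sham pools, and the difference was 0.80 ± 0.16 (SE), a 1.74-fold higher signal (adjusted p = 0.00282, limma). Ddr2 belongs to a group of genes that the study selected on these same pools, so its direction is not independent evidence. Ddr1, the second collagen receptor kinase, had 8.78, 9.11 and 9.16 in DMM pools and 8.74, 8.55 and 8.66 in sham pools, where DMM pool 1 lay close to sham pool 1. Its difference of 0.36 ± 0.13 lay next to the threshold (adjusted p = 0.0488, limma). The call of Ddr1 was lost in 5 of the 6 fits that left out 1 of these pools, and its probe sets did not all agree, as given below.

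Itga10, the alpha chain of a collagen receptor of cartilage, had 9.11, 9.04 and 9.29 in the DMM pools at 4 weeks and 8.91, 8.71 and 8.60 in the sham pools. The pools did not overlap, and the DMM level (9.14 ± 0.13, SD, n = 3) was near that of time 0 (9.16 ± 0.18, SD, n = 3), while sham joints were lower (8.74 ± 0.16, SD, n = 3). The difference of Itga10 between sham joints at 4 weeks and time 0 was not called. The difference between DMM and sham was 0.41 ± 0.13 (adjusted p = 0.0313, limma). The chondrocyte markers averaged 11.13 to 11.79 in DMM pools and 10.67 to 11.07 in sham pools at 4 weeks (1 of 9 tested higher, Acan), and 11.75 to 11.93 at time 0, from which 3 of the 9 differed in the sham pools, all downward. Their part in the value of Itga10 was not tested. Itga1, the other tested chain of this kind, had a difference of 0.25 ± 0.13 that did not pass (adjusted p = 0.181, limma). The second probe set of Itga1 had a larger difference in the same direction, but it lay below the filter on dim signal and was not tested.

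Among the chains that recognize the RGD sequence of fibronectin, vitronectin and fibrinogen, Itgav and Itga2b differed between DMM and sham joints in opposite directions. Itgav, the alpha v chain that pairs with several beta chains, had 12.21, 12.43 and 12.26 in DMM pools at 4 weeks, against 11.93, 11.70 and 11.59 in sham pools. All DMM pools were higher, by 0.57 ± 0.14 or 1.48-fold on average (adjusted p = 0.00871, limma). Itga2b, the alpha chain of the platelet fibrinogen receptor, had 10.71, 10.49 and 10.27 in DMM pools and 11.01, 10.97 and 10.73 in sham pools. The lowest sham pool lay just above the highest DMM pool, and the signal in DMM joints was lower, with a difference of -0.42 ± 0.12 (adjusted p = 0.0181, limma). The mean of Itga2b was 10.49 in DMM joints, 10.91 in sham joints and 10.56 at time 0. DMM joints thus lay nearer to time 0 than sham joints did, and neither was called against time 0 at 4 weeks. Itga5, the fibronectin receptor chain, had a difference of -0.15 ± 0.12 (adjusted p = 0.362, limma).

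Of the 4 tested beta chains outside leukocytes, 2 had more signal in DMM pools than in sham pools at 4 weeks. Itgb5, which pairs with alpha v, had a log2 ratio of DMM to sham of 0.35 ± 0.12 (adjusted p = 0.0425, limma), and Itgb1, the common partner of the collagen-, laminin- and fibronectin-binding chains, of 0.28 ± 0.09 (adjusted p = 0.0396, limma). For Itgb1 the pools touched, since DMM pool 1 at 10.83 was no higher than sham pool 3 at 10.83. Itgb3, the partner of Itga2b and Itgav on platelets and osteoclasts, differed by -0.06 ± 0.10, and Itgb4, a partner of the laminin-binding alpha chain Itga6, by -0.21 ± 0.09 (adjusted p = 0.71 and 0.0884, limma). Itga6 itself differed by -0.05 ± 0.06 (adjusted p = 0.565, limma). The partner proteins Itgb1bp1, which binds the tail of the beta 1 chain, and Itgb3bp did not pass either (0.09 ± 0.10 and 0.10 ± 0.10).

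Of the 6 tested chains of leukocyte integrins, 1 fell and none rose, with a median of -0.21. Itgal, the alpha chain of the lymphocyte receptor LFA-1, had 10.71, 10.91 and 10.76 in DMM pools at 4 weeks and 11.12, 11.09 and 11.02 in sham pools. The pools did not overlap and the difference was -0.28 ± 0.09 (adjusted p = 0.0422, limma). The mean of Itgal was 10.79 in DMM joints, 11.08 in sham joints and 10.88 at time 0, and neither surgery group was called against time 0 at 4 weeks. Its partner Itgb2 differed by -0.22 ± 0.09 and the related mouse chain Itgb2l by -0.34 ± 0.16, and neither passed (adjusted p = 0.0776 and 0.141, limma). Itga4, the alpha chain of a receptor for fibronectin and VCAM-1 on leukocytes, differed by -0.32 ± 0.12 (adjusted p = 0.0625, limma), and the related Itga9 by -0.04 ± 0.10. Itgam, the alpha chain of the myeloid receptor Mac-1, had the widest error of the leukocyte chains, at 0.23 ± 0.26.

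Of the 7 tested ADAMs with an active protease, 2 rose at 4 weeks and none fell. Adam9, a widely expressed sheddase, had 11.14, 11.96 and 11.46 in DMM pools, against 10.81, 10.58 and 10.81 in sham pools. All DMM pools were higher but they spread widely, and the difference was 0.79 ± 0.17 or 1.73-fold (adjusted p = 0.00451, limma). Adam17, the enzyme that releases TNF and several ligands of the EGF receptor, had 10.35, 10.75 and 10.63 in DMM pools and 10.19, 9.93 and 10.21 in sham pools. These pools did not overlap either, and the difference was 0.46 ± 0.10 (adjusted p = 0.00307, limma). Adam10, the related sheddase that acts on Notch, differed by -0.06 ± 0.09 (adjusted p = 0.68, limma). Adam15, Adam8, Adam19 and Adam33 did not pass either, at differences between -0.21 and 0.22.

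Adam4, a mouse ADAM of the testis, had the lowest ratio of the 33 members. It had 7.92, 7.89 and 7.99 in DMM pools at 4 weeks, against 8.44, 8.57 and 8.28 in sham pools. All DMM pools were lower, at a difference of -0.50 ± 0.10 (adjusted p = 0.00343, limma), and they lay close to the brightness threshold of 7.93, so the gene was dim there. The sham pools at 4 weeks were above the time 0 pools (7.94, 8.03 and 7.94), at a difference of 0.46 ± 0.10 (adjusted p = 0.0363, limma), and this was the only member called between sham at 4 weeks and time 0 (3.03% of the members, against 1.03% of all genes, with 0.47% higher and 0.557% lower). That call was lost each time 1 of the time 0 pools, sham pool 1 or sham pool 2 was left out. The catalytically inactive Adam11 (-0.10 ± 0.08) and Adam22 (-0.15 ± 0.09) and the testis gene Adam21 (-0.27 ± 0.16) did not pass at 4 weeks.

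For the called members with the highest and the next highest integrin or DDR ratio and for the called integrin with the lowest, Ddr2, Itgav and Itga2b, the promoters are shown, since these genes differed between DMM and sham joints in both directions at 4 weeks. The 250 bases before the annotated gene start come from RefSeq (GRCm38.p6, on the strand of the gene), at chr1:170088945-170089194 (minus strand) for Ddr2, chr2:83724147-83724396 (plus strand) for Itgav and chr11:102469884-102470133 (minus strand) for Itga2b. Whether transcription in the joint starts at the end of these windows was not tested. Capitals mark matches, on either strand, to the motif TATAAA or to GGAAGT, a motif of ETS factors.
Ddr2: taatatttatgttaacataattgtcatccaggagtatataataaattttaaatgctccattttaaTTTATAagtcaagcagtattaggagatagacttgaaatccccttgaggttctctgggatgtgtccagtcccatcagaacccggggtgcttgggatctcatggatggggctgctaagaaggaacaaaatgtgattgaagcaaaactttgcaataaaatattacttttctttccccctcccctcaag
Itgav: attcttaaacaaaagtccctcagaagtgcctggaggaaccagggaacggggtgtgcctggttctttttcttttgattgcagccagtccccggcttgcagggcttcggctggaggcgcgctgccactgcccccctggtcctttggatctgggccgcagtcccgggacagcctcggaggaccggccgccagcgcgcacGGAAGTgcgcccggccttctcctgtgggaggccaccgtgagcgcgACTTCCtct
Itga2b: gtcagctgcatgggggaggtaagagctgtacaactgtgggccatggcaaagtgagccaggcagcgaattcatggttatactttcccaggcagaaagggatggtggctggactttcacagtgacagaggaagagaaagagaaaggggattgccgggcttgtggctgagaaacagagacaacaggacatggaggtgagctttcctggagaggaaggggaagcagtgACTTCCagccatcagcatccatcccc

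Ddr2 held 1 match to TATAAA, read on the opposite strand as TTTATA, a motif found in 12.4% of the 32851 promoters of this length. Itgav held 2 matches to GGAAGT and Itga2b 1, and this motif was found in 19.7% of promoters. The other motifs searched on both strands, which do not overlap with these matches, were GGGCGG (GC box, in 32.7% of promoters), GATAA (GATA core, 22.6%), TGTGGT (RUNX, 14.0%) and TGANTCA (AP-1, 6.75%), and none of them was in these 3 windows. That says only that these letters are not there. The windows differed in base composition, with 37.6% G and C in Ddr2, 64.4% in Itgav and 54% in Itga2b, against a median of 52.4% over all promoters. An entry was found for 36 of the 57 members and for 23 of the 33 that were tested. Adam9, Itgal, Itga6, Itgb3 and Adam4 were among those without.

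**Figure D2:**
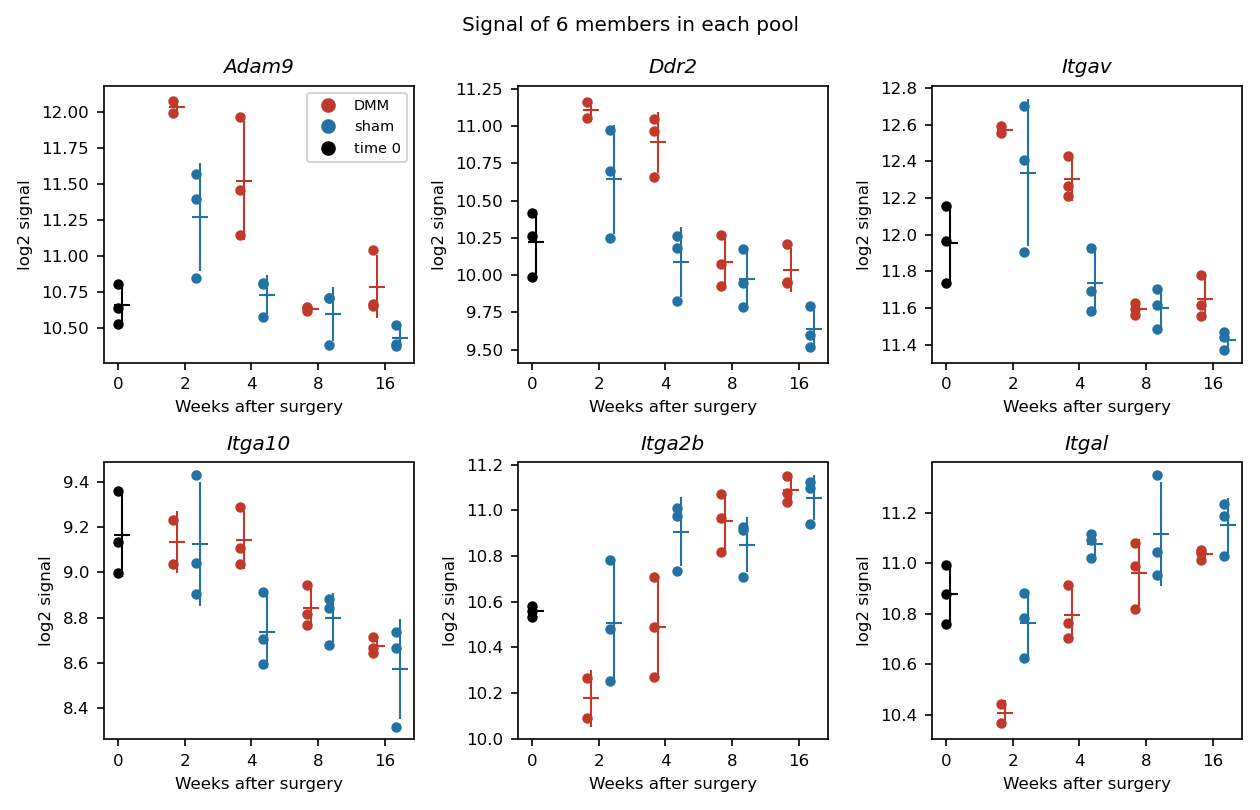
Log2 signal (vertical axis) of Adam9, Ddr2, Itgav, Itga10, Itga2b and Itgal in every pool by weeks after surgery, DMM in red, sham in blue and time 0 in black, with group means and SD beside the points. At 4 weeks DMM pools lie above sham pools for the first 4 genes and below them for Itga2b and Itgal, and at 8 weeks DMM and sham pools overlap for each of the 6.

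Genes with more than 1 probe set showed how far these values depend on the probe. All 4 tested probe sets of Itgb1 were called higher in DMM joints at 4 weeks (0.28 to 0.61), as were all 4 of Itgb5 (0.35 to 0.53) and both of Ddr2 (0.52 and 0.80). Of the 3 probe sets of Adam17, 1 was called, and the 3 lay between 0.34 and 0.46. Ddr1 was uneven, with 3 of its 7 tested probe sets called higher and a range from -0.20 to 0.41. The brightest sets of Itgb5 and Ddr1 are of a type that the array design marks as having probes that can match other transcripts. All called sets of Ddr1 are of this type, while its tested sets without this mark were at 0.03 and -0.20 and were not called. For Itga4, whose brightest set did not pass, all 3 sets were below zero (-0.38 to -0.18) and none was called.

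**Figure D3:**
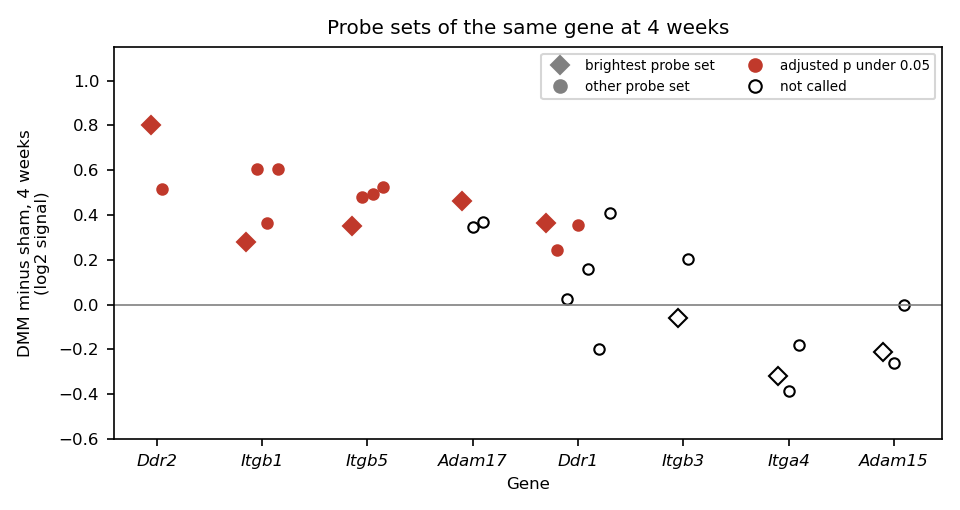
Difference between DMM and sham joints at 4 weeks (log2 signal, vertical axis) for every tested probe set of 8 members with more than 1 (horizontal axis). Diamonds are the brightest probe set, circles the others, and red marks an adjusted p under 0.05: every set of Ddr2, Itgb1 and Itgb5 is called, and those of Ddr1 run from -0.20 to 0.41.

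Marker genes of some cell types also differed between DMM and sham joints at 4 weeks. The mean signal of 8 fibroblast markers was 13.33 to 13.80 in DMM pools and 12.76 to 13.07 in sham pools at 4 weeks (5 of 8 higher), and 4 of the 7 tested endothelial markers were higher. The 6 markers of megakaryocytes and platelets, which express Itga2b, averaged 10.84 to 11.20 in DMM pools and 11.34 to 11.46 in sham pools (5 of 6 lower), and the 6 general leukocyte markers 12.62 to 12.78 in DMM pools and 12.91 to 12.93 in sham pools (2 of 6 lower). The 8 osteoclast markers averaged 10.12 to 10.25 in DMM pools and 9.85 to 10.05 in sham pools (1 of 5 tested higher). The 7 neutrophil markers averaged 14.33 to 14.52 in DMM pools and 14.56 to 14.77 in sham pools (2 of 7 lower, Mpo and Camp). Of 10 macrophage markers 1 was lower and none higher. The 7 markers of B and T cells averaged 8.68 to 9.12 in DMM pools and 9.17 to 9.32 in sham pools, and none of the 6 tested was called. None of the marker genes was at 0. The 10 skeletal muscle markers averaged 10.94 to 12.05 in DMM pools and 12.38 to 12.49 in sham pools, with none called. The part of these cells in the results was not tested. With the muscle signal as a covariate, 7 of the 11 members kept their call at 4 weeks, Ddr1, Itga10, Itgb1 and Itgb5 lost it at differences of 0.28, 0.31, 0.27 and 0.29 (adjusted p between 0.0642 and 0.107, limma), and Itgb2 and Itgb4 were called lower as well.

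**Figure D4:**
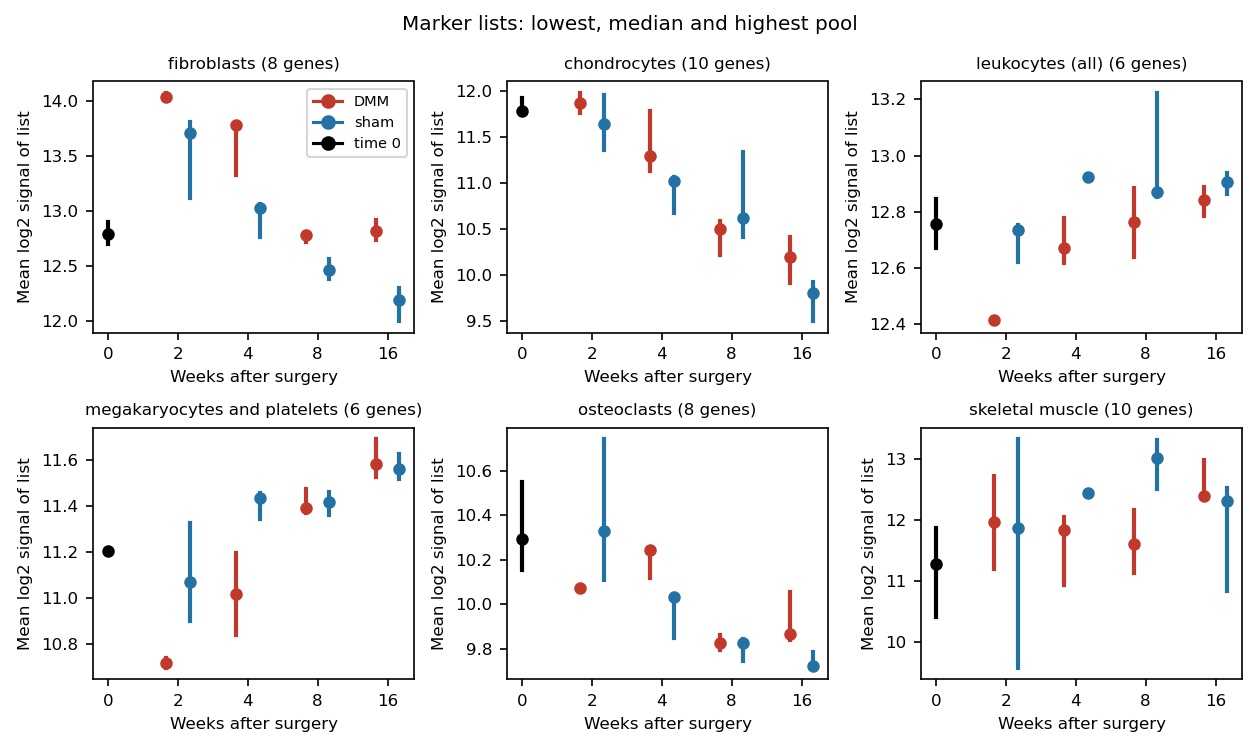
Mean log2 signal (vertical axis) of 6 marker lists by weeks after surgery, DMM in red, sham in blue and time 0 in black: the point is the median pool and the line runs from the lowest to the highest pool. At 4 weeks the DMM pools lie above the sham pools for fibroblasts, chondrocytes and osteoclasts. They lie below the sham pools for leukocytes, for megakaryocytes and platelets and for skeletal muscle.

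Genes that work with these members were read from lists of focal adhesion proteins, ligands, ADAM regulators and ADAM substrates. Of 29 tested focal adhesion proteins, 6 rose in DMM joints at 4 weeks and 6 fell. Of all genes tested, 13.2% were called higher and 7.05% lower in this comparison. The higher ones were led by Parva (0.95 ± 0.16), the actin linker alpha-parvin, Kank2 (0.67 ± 0.14) and Fermt2 (0.48 ± 0.12), kindlin-2, which switches integrins on. The lower ones were led by Fermt3 (-0.37 ± 0.07), the kindlin of blood cells, Zyx (-0.26 ± 0.07), zyxin, and Cd47 (-0.25 ± 0.08), which binds integrins at the membrane. Of 15 tested ligands 7 were higher and none lower, led by Lamc1 (0.80 ± 0.17), a laminin chain, and Nid1 (0.65 ± 0.16), nidogen of basement membranes.

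On the ADAM side, 3 of 14 tested regulators were higher in DMM joints at 4 weeks and none was lower. Timp1 (1.86 ± 0.40) and Timp2 (0.69 ± 0.17) encode inhibitors of metalloproteases, and Rhbdf1 (0.52 ± 0.13) encodes iRhom1, which escorts Adam17 to the cell surface. Of 21 tested substrates, 5 were higher and 1 lower. Tnfsf11, which encodes RANKL, the signal for osteoclast formation, was higher by 1.05 ± 0.26, the EGF receptor ligand Hbegf by 0.90 ± 0.29 and the Notch ligand Jag1 by 0.70 ± 0.16, while the chemokine Cx3cl1 was lower (-0.42 ± 0.11). These counts are descriptions of the lists, to be read beside the 20.3% of all genes called at 4 weeks (13.2% higher, 7.05% lower).

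At 2 weeks, 3 of the 33 members differed between DMM and sham joints, 2 higher and 1 lower, against 2.82% of all genes (1.91% higher, 0.914% lower). Adam9 had 12.08 and 12.00 in the DMM pools and 10.85, 11.57 and 11.40 in the sham pools, at a difference of 0.77 ± 0.19 (adjusted p = 0.0418, limma). Itgb1 had 11.34 and 11.38 in DMM pools, against 10.79, 11.08 and 10.92 in sham pools, at 0.43 ± 0.10 (adjusted p = 0.0347, limma), and 3 of its 4 probe sets were called. Both genes were therefore called higher in DMM joints at 2 as well as at 4 weeks. Itgb3 was lower in DMM joints, with 9.95 in both DMM pools and 10.61, 10.42 and 10.41 in sham pools, at -0.53 ± 0.11 (adjusted p = 0.0267, limma), but its other probe set was at -0.17. All 3 calls were lost when sham pool 1 or either DMM pool was left out, and without sham pool 2 or 3 the count was 5 or 7. Osteoclast markers, a cell type known for the alpha v beta 3 integrin, averaged 10.07 in the DMM pools and 10.11 to 10.74 in the sham pools at 2 weeks, with none of 5 called. Markers of megakaryocytes and platelets, which also carry Itgb3, averaged 10.70 to 10.74 in the DMM pools and 10.90 to 11.33 in the sham pools (2 of 6 lower, Ppbp and Pf4), and fibroblast markers 14.00 to 14.08 in the DMM pools and 13.12 to 13.81 in the sham pools (1 of 8 higher). The part of these cells in the 3 calls was not tested. The skeletal muscle markers averaged 11.20 to 12.71 in the DMM pools and 9.59 to 13.31 in the sham pools at 2 weeks. With the muscle signal as a covariate all 3 calls were kept, and Ddr2, Itga4 and Itgb5 were called as well.

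At 8 weeks no member was called between DMM and sham joints, nor was any of the 11488 genes. An unadjusted p under 0.05 (limma) held for 5 members and for 2724 of the 22482 probe sets tested. The DMM pools lay above all sham pools for 5 members at 8 weeks and below them for none, which was 15.2% of the members, against 14.3% of all genes. At 16 weeks again no member was called, against 0.0522% of all genes. An unadjusted p under 0.05 (limma) held for 3 members and for 1658 of the 22482 probe sets tested. At 16 weeks the DMM pools lay above all sham pools for 6 members and below them for none, which was 18.2% of the members, against 19.1% of all genes. These were Itgb5 (0.36 ± 0.12), Ddr2 (0.40 ± 0.16), Adam9 (0.36 ± 0.17), Ddr1 (0.29 ± 0.13), Itgav (0.22 ± 0.14) and Adam17 (0.08 ± 0.10), with adjusted p between 0.406 and 0.938 (limma). The DMM effect on Itgb5 was 0.45 ± 0.13, 0.35 ± 0.12, 0.34 ± 0.12 and 0.36 ± 0.12 at 2, 4, 8 and 16 weeks, and Itgb5 was called at 4 weeks alone.

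Whether the effect of DMM differed between weeks was tested as an interaction, and no member passed for any of the 6 pairs of weeks (limma). Between 4 and 8 weeks 15 members had an unadjusted p under 0.05 (limma), as had 6277 of the 22482 probe sets tested. The share of all genes called at an adjusted p under 0.05 was 1.63% (1.43% higher, 0.2% lower). The smallest adjusted p of any member in these tests, 0.0507, was for Adam17, whose DMM effect was higher at 4 than at 8 weeks by 0.53 ± 0.14.

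The sham time course was set against time 0. At 2 and 8 weeks no member was called. The share of all genes called was 2.01% at 2 weeks (1.64% higher, 0.374% lower) and 1.04% at 8 weeks (0.461% higher, 0.575% lower). At each of these weeks 8 members had an unadjusted p under 0.05 (limma), as had 4010 and 3586 of the 22482 probe sets tested. At 16 weeks 5 members were called, 2 higher and 3 lower in sham joints, against 6.4% of all genes (1.49% higher, 4.91% lower). Itga10 had 8.32, 8.66 and 8.74 in sham pools and 9.36, 9.00 and 9.13 at time 0 (-0.59 ± 0.13, adjusted p = 0.00792, limma). Ddr2 had 9.52, 9.79 and 9.60 in sham pools and 10.42, 9.99 and 10.27 at time 0 (-0.59 ± 0.16, adjusted p = 0.0376, limma), and 1 of its 2 probe sets was called. In both genes every sham pool was below every time 0 pool.

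Itgav was also lower at 16 weeks, with 11.44, 11.47 and 11.37 in sham pools and 11.97, 11.74 and 12.16 at time 0 (-0.53 ± 0.14, adjusted p = 0.029, limma). Itga2b was higher, with 11.12, 10.94 and 11.10 in sham pools and 10.58, 10.53 and 10.56 at time 0 (0.50 ± 0.12, adjusted p = 0.015, limma). Itga6 was higher as well, with 11.00, 10.96 and 10.98 in sham pools and 10.78, 10.70 and 10.76 at time 0 (0.23 ± 0.06, adjusted p = 0.0262, limma), and both of its probe sets were called. Pools did not overlap for any of the 3, as was so for 19 of the 33 members (57.6%) and for 36.4% of all genes in this comparison. All 5 calls of that week were lost without time 0 pool 1 and also without sham pool 1, and only that of Itga10 was kept without time 0 pool 3 or sham pool 3.

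At 16 weeks the 10 chondrocyte markers averaged 9.50 to 9.92 in sham pools and 11.75 to 11.93 at time 0, and all 9 that were tested were lower. Fibroblast markers averaged 11.99 to 12.30 in sham pools and 12.70 to 12.90 at time 0 (4 of 8 lower), and markers of megakaryocytes and platelets 11.52 to 11.63 in sham pools and 11.20 to 11.22 at time 0 (4 of 6 higher). Their part in the values of Itga10, Ddr2, Itgav and Itga2b was not tested. Sham mice at 16 weeks were also 28 weeks old, against 12 weeks at time 0, so age, surgery and time since surgery cannot be told apart.

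DMM joints were set against the same time 0 pools, so these values share their controls with the sham values and, through DMM, their pools with the DMM and sham comparison. At 2 weeks 15 members were called, 7 higher and 8 lower in DMM joints, against 32.9% of all genes (16.4% higher, 16.5% lower). The higher members were Adam9 (1.38 ± 0.19), Ddr2 (0.88 ± 0.18), Itgb5 (0.77 ± 0.13), Itgav (0.62 ± 0.16), Ddr1 (0.58 ± 0.14), Itgb1 (0.57 ± 0.10) and Adam17 (0.41 ± 0.11). Adam9 was at 12.08 and 12.00 in DMM pools and at 10.81, 10.53 and 10.64 at time 0, a 2.60-fold higher signal (adjusted p = 4.9e-05, limma). For all 7 the sham mean at 2 weeks lay between those of time 0 and DMM, with no sham call. Means at time 0, in sham and in DMM joints were 10.66, 11.27 and 12.04 for Adam9. They were 11.95, 12.34 and 12.57 for Itgav and 8.66, 9.03 and 9.24 for Ddr1. Of the 7, only Adam9 and Itgb1 were called against sham at 2 weeks.

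The 8 lower members at 2 weeks were Itgb2l (-0.69 ± 0.18), Itga4 (-0.64 ± 0.13), Itgb3 (-0.58 ± 0.11), Itgal (-0.47 ± 0.11), Itga2b (-0.38 ± 0.13), the integrin partner Itgb3bp (-0.32 ± 0.11), Itgb2 (-0.29 ± 0.10) and Itgb7 (-0.29 ± 0.08), a partner of Itga4 and Itgae on lymphocytes. At 2 weeks the markers of megakaryocytes and platelets averaged 10.70 to 10.74 in DMM pools and 11.20 to 11.22 at time 0 (6 of 6 lower), the general leukocyte markers 12.41 to 12.42 in DMM pools and 12.67 to 12.85 at time 0 (3 of 6 lower), and the fibroblast markers 14.00 to 14.08 in DMM pools and 12.70 to 12.90 at time 0 (8 of 8 higher). Of the 10 macrophage markers 5 were higher and 1 was lower, and the part of these cells in the 15 calls was not tested. At 4 weeks 4 members were called, all higher (12.1% of the members, against 9.71% of all genes called, 7.86% higher and 1.85% lower). They were Adam9 (0.86 ± 0.17), Ddr2 (0.67 ± 0.16), Adam17 (0.43 ± 0.10) and Itgb5 (0.41 ± 0.12). Without DMM pool 2 the count at 2 weeks was 9. At 4 weeks it was 1 (Adam9) without DMM pool 2 or 3, 2 without time 0 pool 2 and 8 without DMM pool 1.

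At 8 weeks no member was called against time 0 in DMM joints, where 0.801% of all genes were called (0.087% higher, 0.714% lower). An unadjusted p under 0.05 (limma) held for 5 members and for 2711 of the 22482 probe sets tested. At 16 weeks 2 were called, both higher (6.06% of the members, against 1.85% of all genes called, 0.522% higher and 1.33% lower). Itga2b was at 0.53 ± 0.12 and Itga6 at 0.25 ± 0.06 in DMM joints, beside 0.50 ± 0.12 and 0.23 ± 0.06 in the sham joints of the same week. The call of Itga2b in DMM joints was lost each time 1 of the 6 pools was left out, and Itga6 kept its call only without DMM pool 3.

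**Figure D5:**
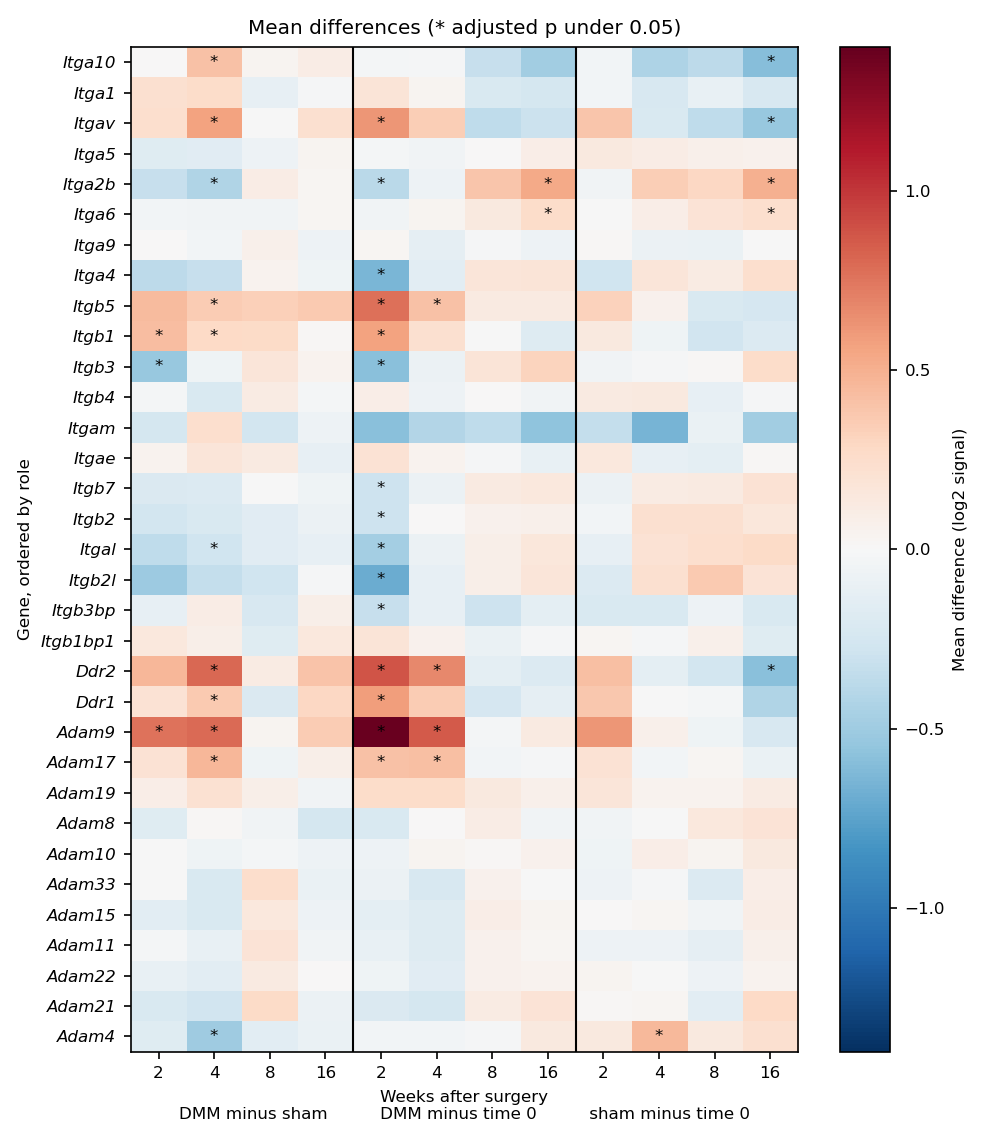
Mean difference (log2 signal, colour) of the 33 tested members, in rows ordered by role, for DMM against sham, DMM against time 0 and sham against time 0 at 2, 4, 8 and 16 weeks, in columns; a star marks an adjusted p under 0.05. The stars for DMM against sham lie at 2 and 4 weeks, and the darkest cell is Adam9 in DMM joints at 2 weeks against time 0, at 1.38.

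The other 24 members fell below the filter on mean signal and were fitted only without it. Their median difference between DMM and sham joints at 4 weeks was -0.09, and 3 of the 24 were called (12.5%, 1 higher and 2 lower), where 9.07% of all 6706 genes below the filter were called in the same fit (5.06% higher, 4.01% lower). Itgb8, a partner of alpha v that releases active TGF-beta from its latent complex, had 8.25, 9.46 and 8.44 in DMM pools at 4 weeks and 7.21, 7.14 and 7.58 in sham pools. All DMM pools were higher (adjusted p = 0.00405, limma without the filter), but all 3 sham pools lay below the brightness threshold of 7.93, so no size is given for the difference. At 2 weeks the DMM pools had 9.00 and 8.85 and the sham pools 7.33, 8.49 and 8.48, and the difference did not pass (adjusted p = 0.255, limma without the filter). At 8 weeks the DMM mean was 7.15 and so was the sham mean, and the time 0 pools had 7.62, 7.03 and 6.84.

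The other 2 called dim members were lower in DMM joints at 4 weeks and are known as testis or sperm ADAMs. They were Adam32 (adjusted p = 0.0442) and Adam34 (adjusted p = 0.0152, limma without the filter). Both lie below the median signal of an array, so no size is given for their differences. The remaining 21 members below the filter, among them the collagen-binding Itga2, the laminin-binding Itga3 and Itga7 and the dendritic cell chain Itgax, were not called at 4 weeks.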

How the data were processed

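RNA of 26 pools was measured on 1-colour Affymetrix mouse genome arrays with 45101 probe sets. Per the study's methods, the authors scaled the signals by systematic variation normalization and took log2; the deposited log2 values were used unchanged, and array medians were 7.90 to 7.95. Detection p-values were not used here. Precision is limited by the number of pools, since an exact permutation test could not go below 0.1 with 3 pools a group, or 0.2 where DMM at 2 weeks enters.

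The array annotation gives 34958 probe sets 1 symbol, 932 several and 9211 none; the last 2 kinds were left out of gene results, with 5 matching probe sets of several symbols. The 22482 probe sets with a mean above 7.93 were fitted in limma 3.58.1 (R 4.3.3), with a mean for each of the 9 conditions and 17 residual degrees of freedom. Adjusted p-values are Benjamini-Hochberg over these probe sets, called under 0.05. On simulated data of 22482 probe sets, the comparison at 4 weeks recovered 60 of 100 changes of size 0.5 and 98 of 100 of size 1, with 5 false calls. The simulation drew independent noise and changed no other probe sets, whereas 4282 probe sets were called at 4 weeks in the data. These counts check the fit and do not measure its power in the real comparisons.

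The members, gene lists and tests were chosen with earlier results of these data known. Named with values are all called members, and of each role group the members with the highest signal and the largest ratios at 4 weeks; values per pool follow the 8 called members with the largest ratios at 4 weeks and the called members of sham at 16 weeks, and those for other genes were picked after their values were seen. Nothing says that pools of the same number in different conditions belong together. Alternatives were no filter on dim probe sets, a stricter one (1 log2 unit higher), quantile normalization, array weights (gene-by-gene method), a replicate block, the ratio of the 3' to the 5' Gapdh probe set or the muscle signal as a covariate, a fit of the compared groups alone, every probe set of a gene, and leaving out each pool.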

Additional observations from a re-analysis of the deposited data

How the results depend on the processing

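No called value of a gene's brightest probe set changed sign in a refit that tested it, which for the stricter filter was 34 of the 41 called values. Another tested probe set of Ddr1 was below zero at 4 weeks (-0.20). Some dim probe sets of Ddr1, Itgb1 and Itgav, which were not tested, were below zero as well. Of the 11 calls between DMM and sham at 4 weeks, Adam9, Ddr2, Adam4 and Adam17 were kept whichever pool was left out, and all 11 with the replicate block and the Gapdh ratio. That of Adam17 was lost with only the groups compared. Counts of called members that moved by over 1.5 times were as follows; the cause was not tested. For DMM against sham at 2 weeks the main count of 3 became 1 without the filter, 0 with array weights, 6 with the muscle covariate, 0 with only the groups compared and 1 when every probe set had to pass; at 4 weeks 11 became 19 with array weights and 4 with only the groups compared. For sham against time 0, the count of 0 at 2 weeks became 12 with array weights and 5 with the muscle covariate, and at 8 weeks 4 with array weights. At 4 weeks the count of 1 became 2 without the filter and with the replicate block, 4 with array weights, and 0 with the stricter filter, either covariate or only the groups compared; at 16 weeks 5 became 14 with array weights and 2 with the Gapdh ratio. For DMM against time 0 at 4 weeks, 4 became 12 with array weights, 2 with the Gapdh ratio, 7 with the muscle covariate, 0 with only the groups compared and 2 by every probe set; at 8 weeks 0 became 1 without the filter, 3 with array weights and 1 with the replicate block; at 16 weeks 2 became 4 with array weights, 0 with the muscle covariate and 1 by every probe set. For the interactions, the count of 0 between 4 and 8 weeks became 1 with the stricter filter, 16 with array weights, 2 with the replicate block and 9 with the muscle covariate; array weights gave 2 between 4 and 16 weeks, 1 between 2 and 8 and 1 between 8 and 16, and the muscle covariate gave 2 between 2 and 8. Leaving out a pool gave 0 to 7, 4 to 16, 0 to 1 and 0 calls for DMM against sham at 2, 4, 8 and 16 weeks, 0 to 6, 0 to 1, 0 and 0 to 4 for sham against time 0, 9 to 14, 1 to 8, 0 and 0 to 1 for DMM against time 0, 0 to 11 for the interaction of 4 and 8 weeks, 0 to 1 for that of 2 and 8 and 0 for the others. The lowest count at 4 weeks was without DMM pool 2. Pools of the same number deviated together with a median correlation of 0.08 over 100 pairs, against -0.05 over 200 pairs of different numbers. The range for the same number was -0.42 to 0.73. These values do not show that the numbers pair the pools, and they cannot exclude it. With the block, 1 of 41 called values was lost. Of those 41 values, 11 were lost without the filter, 18 with only the groups compared, 9 with the Gapdh ratio, 8 with the muscle covariate, 5 with quantile normalization and 3 with array weights.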
